A study of Homo sapiens with 10 samples.

Results

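EIF4EBP1, which encodes the translation repressor 4E-BP1, lies on the short arm of chromosome 8 among genes that are often discussed together as the 8p12-p11 region. The genes described here are the listed neighbours on either side of EIF4EBP1, from UNC5D on the telomere side to SLC20A2 on the centromere side, with EIF4EBP1 itself kept only as the point of reference. They were chosen by name and position, not by any measured value. Of 35 listed genes, 34 had a probe set that names a single gene, out of 18279 genes measured in all, and KCNU1 had none. Each of the 34 had 1 such probe set, so no choice between probe sets was needed. No genome build is stated for the deposited values, so gene order is used and no positions are given.

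Expression was measured in human cells on 10 Affymetrix arrays of total RNA, 1 array per sample. A549 is an established lung adenocarcinoma line, labelled sensitive to discodermolide, a natural product that stabilises microtubules. The groups were A549 in 0.01% DMSO (n = 4), A549 given 32 nM discodermolide and labelled senescent (n = 2), AD32, labelled resistant and kept in 32 nM discodermolide (n = 3), and AD32 4E-BP1, labelled sensitive and given 0.01% DMSO (n = 1). AD32 therefore differs from A549 in DMSO in both line and drug. AD32 4E-BP1 likewise differs from AD32 in both line and drug, so differences between them cannot be assigned to 4E-BP1 alone. The labels say neither whether the lines are clones nor how 4E-BP1 was introduced. The numbered samples are called biological replicates without saying how they were grown apart, so p-values measure the spread between these samples.

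The region is known from cancer genomes, where stretches of it are gained in some breast and squamous lung tumours and lost in others. Its genes share position rather than a pathway. They include the growth factor receptor FGFR1, the histone methyltransferase NSD3 and ASH2L, a core subunit of the complexes that methylate histone H3 lysine 4. Others act in RNA decay (LSM1), DNA replication (GINS4), base excision repair (POLB), lipid synthesis (GPAT4) and NF-kappaB signalling (IKBKB).

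All levels below are deposited log2 signals, differences are on the log2 scale, and a called gene has an adjusted p under 0.05 from limma with Benjamini-Hochberg adjustment over all 18279 genes. A lone array, as in AD32 4E-BP1, is assumed in the fit to vary like the other groups. In bulk RNA, fewer cells with a transcript and less of it per cell cannot be told apart.

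Some arrays stood apart from their groups. The mean of 8 G2/M markers, genes of mitosis that mark dividing cells, was 10.34 to 10.37 on A549 DMSO replicates 2 to 4 and 7.20 on replicate 1, and 5.35 and 6.36 on AD32 replicates 1 and 2 and 10.04 on replicate 3. The treated A549 arrays lay at 6.95 and 7.19 and AD32 4E-BP1 at 10.25. Over all genes the AD32 4E-BP1 array was closest to A549 DMSO replicate 2 (Pearson r = 0.9950 across genes, which are not independent), against r between 0.9319 and 0.9787 with the AD32 arrays. Among the 601 genes called with a difference of at least 2-fold between AD32 and A549 in DMSO, it lay nearer the A549 mean for 579. A549 DMSO replicates 3 and 4 were the most alike of any pair (r = 0.9974). As for cell type, 6 of 8 lung epithelial markers lay above the lower quartile of every array (4.77 to 4.94), KRT18 reaching 13.03 to 14.00. Of these, KRT19 (5.71 to 6.28), SFTPB (5.27 to 5.86) and SFTPC (5.69 to 6.53) lay much closer to that quartile. EPCAM lay below it on all 10 arrays and NKX2-1 on 8. Of 3 measured leukocyte markers PTPRC lay below it on all arrays and CD14 above it on all, and of 3 endothelial markers PECAM1 lay below it on all and none above it on all. Of 4 fibroblast markers DCN lay below it on all arrays, while COL1A1 (7.69 to 8.16), COL3A1 (up to 8.78) and PDGFRB (5.30 to 6.06) lay above it on all. The leukocyte markers averaged 4.24 to 4.77 over the arrays and the endothelial markers at most 5.05. The fibroblast markers averaged 5.60 to 5.80 in AD32 and 6.13 to 6.38 in A549 in DMSO, and their part in the results was not tested.

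EIF4EBP1 gives the reference. Its level was 10.23, 9.50, 9.47 and 9.52 on A549 DMSO replicates 1 to 4, 9.76 and 9.58 in discodermolide, 8.93, 7.99 and 8.63 in AD32, and 11.61 on the AD32 4E-BP1 array. AD32 lay below every A549 array and AD32 4E-BP1 above every other array. Against A549 in discodermolide the AD32 difference was -1.15 (SE 0.31, adjusted p = 0.0841 by limma). That was not called, nor was it in 16 of 19 alternatives. The AD32 difference from A549 in DMSO was -1.16 (SE 0.26, adjusted p = 0.0326) and that of AD32 4E-BP1 was 1.93 (SE 0.38, not called). That array stood 3.09 above the AD32 mean (SE 0.39). This was called in the main fit but not when only these groups gave the spread. The AD32 fall was no longer called when AD32 replicate 2 was left out (adjusted p = 0.108), nor without A549 DMSO replicate 2, 3 or 4 (0.0606, 0.0676 and 0.0759) or either treated A549 array (0.0619 each).

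Most neighbours lay lower in AD32 than in A549 in DMSO, and few of them were called. Of the 34 genes, 25 had a lower mean, against 48.2% of all genes, and the median difference was -0.36, against 0.01 over all genes. UNC5D, ASH2L and PLEKHA2 fell and ANK1 rose. That is 4 of 34 called, in a comparison where 5.72% of all genes were called (2.19% lower, 3.52% higher). At an unadjusted p under 0.05, 14 of 34 passed, with 19.7% of all genes. The AD32 arrays all lay below the A549 DMSO arrays for 5 neighbours (UNC5D, RAB11FIP1, ASH2L, PLEKHA2 and IKBKB), with 6.48% of all genes, and all above them for ANK1, with 8.9%. The count of 4 (3 lower, 1 higher) became 13 (12 lower, 1 higher) without A549 DMSO replicate 1, where 11.8% of all genes were called. It became 2 (1 and 1) without AD32 replicate 1, where 571 of 18279 genes were called.

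**Figure D1:**
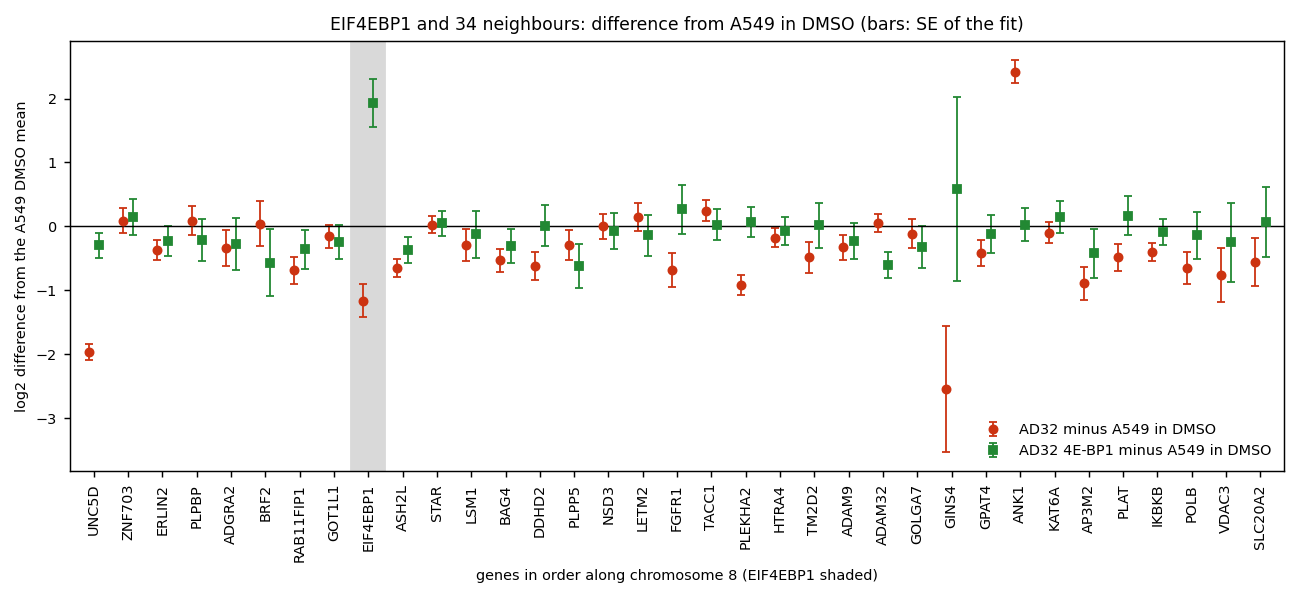
Log2 difference from the A549 DMSO mean for 34 neighbours and EIF4EBP1 (shaded), in gene order from the telomere side (left), for AD32 (circles, 3 arrays) and AD32 4E-BP1 (squares, 1 array), with bars for the standard error of the fit. UNC5D at the left end (-1.96) and ANK1 (2.42) have the largest AD32 differences apart from GINS4 (-2.54), and GINS4 has the widest bars.

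UNC5D, a netrin receptor of the UNC5 family, is the listed gene farthest out on the telomere side. Its level was 8.09, 8.09, 8.11 and 8.17 in A549 in DMSO, 7.96 and 7.71 in discodermolide, 6.30, 6.23 and 5.93 in AD32, and 7.82 on the AD32 4E-BP1 array. The AD32 arrays were all below every other array, with a gap far wider than the spread in A549. UNC5D in AD32 fell by 1.96 (SE 0.13, adjusted p = 5.59e-05), a 3.90-fold difference in signal, and it was called under all 19 alternatives, with differences from -2.07 to -1.85. Against A549 in the same drug concentration it fell by 1.68 (SE 0.16, adjusted p = 0.000691). On the AD32 4E-BP1 array it was 1.67 higher than in AD32 (SE 0.20, adjusted p = 0.00519) and -0.30 from A549 in DMSO (SE 0.19, not called).

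ANK1, which encodes the membrane skeleton adaptor ankyrin-1, went the other way. Levels were 5.90, 5.60, 5.56 and 5.46 in A549 in DMSO, 5.90 and 5.92 in discodermolide, 8.26, 7.67 and 8.23 in AD32, and 5.66 on the AD32 4E-BP1 array. The AD32 arrays were high and all others close together and low. ANK1 rose by 2.42 in AD32 (SE 0.18, adjusted p = 8.64e-05), 5.36-fold in signal, and was called under all 19 alternatives. It was 2.14 higher than in A549 in discodermolide (SE 0.21, adjusted p = 0.000865) and lower on the AD32 4E-BP1 array than in AD32 (difference -2.39, SE 0.27, adjusted p = 0.00366). UNC5D and ANK1 were the 2 neighbours called between AD32 4E-BP1 and AD32, where 0.919% of all genes were called, 0.339% higher and 0.58% lower. Neither was called when only these groups gave the spread (adjusted p = 0.247 for UNC5D and 0.158 for ANK1).

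PLEKHA2 encodes a pleckstrin homology domain protein that binds phosphoinositides. Its level was 8.96, 8.68, 9.12 and 8.96 in A549 in DMSO, 9.33 and 9.29 in discodermolide, 7.84, 8.31 and 7.89 in AD32, and 9.00 on the AD32 4E-BP1 array. AD32 was below every other array. It fell both against A549 in DMSO (difference -0.92, SE 0.16, adjusted p = 0.0114) and against A549 in discodermolide (difference -1.30, SE 0.19, adjusted p = 0.00742). Between the AD32 4E-BP1 array and AD32 the difference was 0.99 (SE 0.24, adjusted p = 0.148). The comparison with A549 in DMSO was not called without AD32 replicate 1 (adjusted p = 0.0506), nor that with A549 in discodermolide without either treated A549 array (0.0821 without replicate 1 and 0.0797 without replicate 2).

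ASH2L, the listed gene next to EIF4EBP1 on the centromere side, had levels of 10.31, 10.61, 10.72 and 10.65 in A549 in DMSO, 10.22 and 10.41 in discodermolide, 9.85, 9.85 and 10.06 in AD32, and 10.21 on the AD32 4E-BP1 array. AD32 was again lowest, while the AD32 4E-BP1 array lay between AD32 and A549 in DMSO. It fell in AD32 (difference -0.65, SE 0.14, adjusted p = 0.028). The adjusted p ran from 0.00243 to 0.104 over 19 alternatives and was above the threshold in 12. Those included leaving out AD32 replicate 1 (0.0987) or 2 (0.104), A549 DMSO replicate 2, 3 or 4 (0.0703, 0.0902 and 0.0938) and either treated A549 array (0.0505 each).

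GOT1L1, the listed gene next to EIF4EBP1 on the telomere side, lay near the lower quartile on every array (4.47 to 5.29). Its difference in AD32 was -0.16 (SE 0.18). The AD32 arrays, at 4.78, 4.76 and 4.64, lay within those of A549 in DMSO, at 5.29, 4.78, 4.92 and 4.54.

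**Figure D2:**
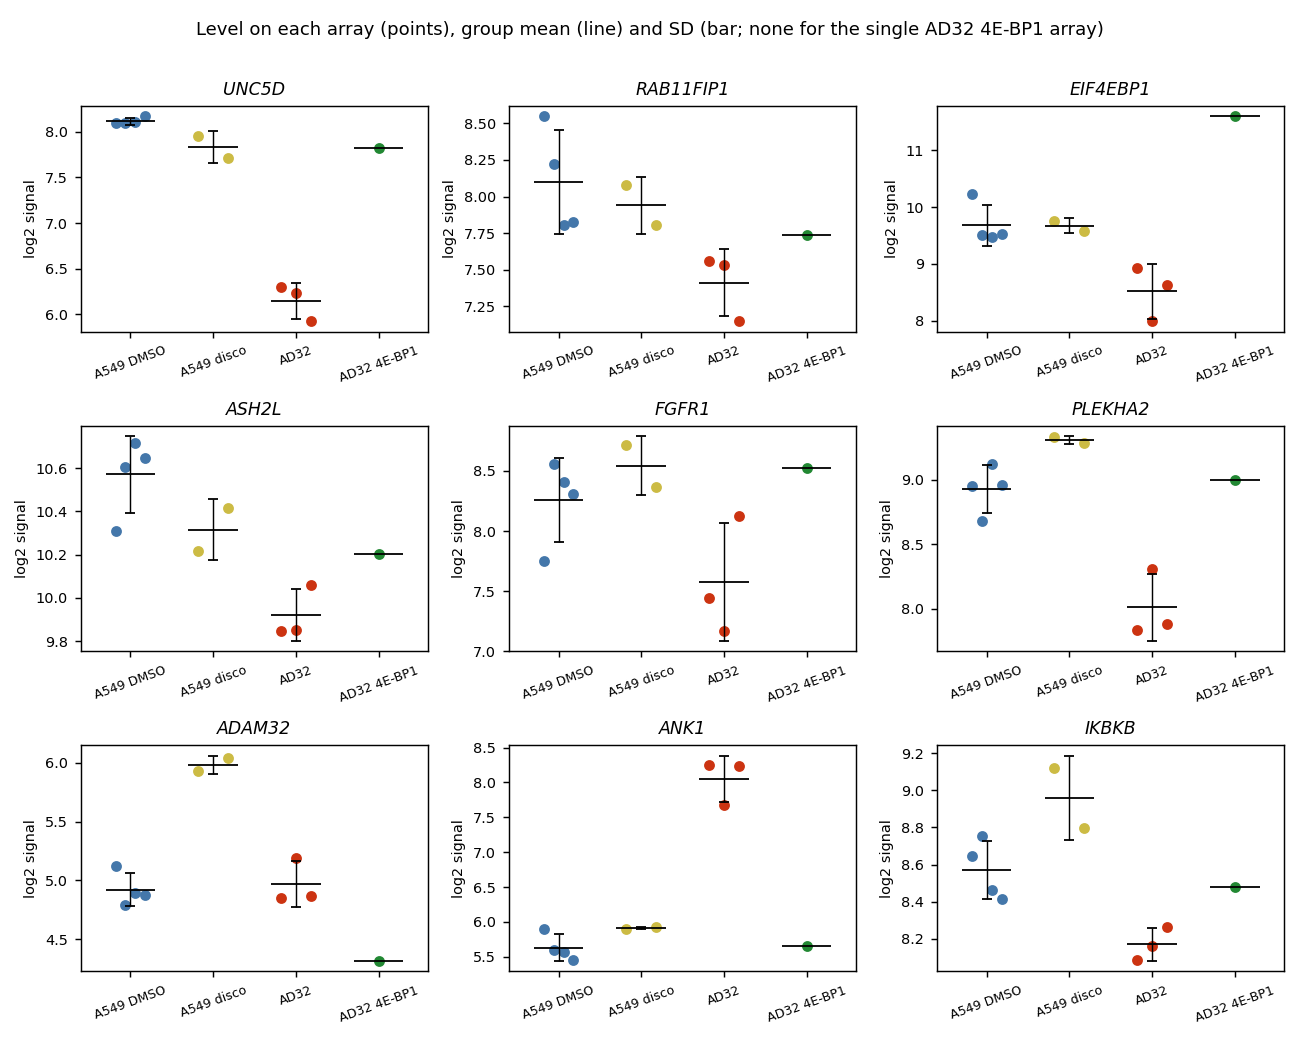
Log2 signal on each of 10 arrays (points) for 8 neighbours and EIF4EBP1, with the group mean (line) and SD (bar, none for the single AD32 4E-BP1 array). AD32 lies below all other arrays for UNC5D, RAB11FIP1, EIF4EBP1, ASH2L, PLEKHA2 and IKBKB and above them for ANK1. ADAM32 is highest in discodermolide, and EIF4EBP1 is highest on the AD32 4E-BP1 array.

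Among receptors and signalling genes, all 5 had a negative AD32 difference and UNC5D was the one called. FGFR1, a receptor tyrosine kinase for fibroblast growth factors, had levels of 7.75, 8.55, 8.41 and 8.31 in A549 in DMSO, 8.72 and 8.37 in discodermolide, 7.44, 7.17 and 8.12 in AD32, and 8.52 on the AD32 4E-BP1 array. AD32 replicate 3 lay within the A549 DMSO arrays, whose lowest was replicate 1. The difference of -0.68 (SE 0.26, adjusted p = 0.19) was not called, and without AD32 replicate 3 it was -0.95 (adjusted p = 0.0379). With the mean of the G2/M markers as a covariate, added after seeing the data, it was -0.24 (adjusted p = 0.517). Against treated A549, all AD32 arrays were lower, but the difference of -0.97 (SE 0.31, adjusted p = 0.149) did not pass either. There too it passed without AD32 replicate 3 (-1.24, adjusted p = 0.0357). Against treated A549 it also passed with the G2/M covariate (-1.001, adjusted p = 0.0089) and with array weights (-1.099, adjusted p = 0.0119). In 16 of 19 alternatives that comparison was not called. Array weights also called FGFR1 lower against A549 in DMSO (-0.906, adjusted p = 0.00888).

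IKBKB encodes IKK-beta, the kinase that releases NF-kappaB from its inhibitor. Levels were 8.65, 8.75, 8.46 and 8.42 in A549 in DMSO, 9.12 and 8.80 in discodermolide, 8.08, 8.16 and 8.26 in AD32, and 8.48 on the AD32 4E-BP1 array. The order was AD32, A549 in DMSO, then treated A549, with no overlap between neighbouring groups. IKBKB was lower in AD32 than in treated A549 (difference -0.79, SE 0.17, adjusted p = 0.0345) and was not called against A549 in DMSO (-0.40, SE 0.14, adjusted p = 0.143). The former call ended in 11 of 19 alternatives, among them leaving out AD32 replicate 1 or 2 (adjusted p = 0.0991 and 0.0882), A549 DMSO replicate 3 or 4 (0.0644 and 0.0604) and discodermolide replicate 1 or 2 (0.292 and 0.108). BAG4, a silencer of death receptor signalling, was at -0.53 (SE 0.18, adjusted p = 0.143) in AD32, and without A549 DMSO replicate 1 it was called (-0.67, adjusted p = 0.0242). ADGRA2, an adhesion G protein-coupled receptor, was at -0.34 (SE 0.28).

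Of the 5 chromatin and transcription genes, ASH2L was the one called, and the median difference was 0.00. NSD3 had levels of 8.75, 9.42, 9.14 and 9.25 in A549 in DMSO, 9.17 and 8.94 in discodermolide, 9.20, 9.40 and 8.83 in AD32, and 9.07 on the AD32 4E-BP1 array. All groups overlapped, and the AD32 difference was 0.00 (SE 0.20). ZNF703, a transcriptional cofactor gene, had levels of 7.83, 7.84, 7.26 and 7.28 in A549 in DMSO, 7.73 and 7.88 in discodermolide, 7.65, 7.42 and 7.86 in AD32, and 7.70 on the AD32 4E-BP1 array. Here too the arrays overlapped (AD32 difference 0.09, SE 0.19), and the sign turned in 5 of 19 alternatives. The acetyltransferase gene KAT6A was at -0.10 (SE 0.17). BRF2, a factor for RNA polymerase III, was uneven in AD32, at 7.56, 8.81 and 6.99, and its mean differed by 0.045 (SE 0.36).

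Lipid and endoplasmic reticulum genes had 4 of 5 differences below 0 in AD32 and none called, with 2 (DDHD2 and ERLIN2) at an unadjusted p under 0.05 by limma. Without A549 DMSO replicate 1, DDHD2 (-0.81, adjusted p = 0.0149) and ERLIN2 (-0.49, adjusted p = 0.046) were called. With all arrays the phospholipase DDHD2 was at -0.62 (SE 0.22, adjusted p = 0.158), the glycerol-3-phosphate acyltransferase GPAT4 at -0.42 (SE 0.20), the endoplasmic reticulum scaffold ERLIN2 at -0.37 (SE 0.16) and the lipid phosphatase PLPP5 at -0.29 (SE 0.23). STAR, the cholesterol carrier of steroid-making cells, lay at 4.96 to 5.36 on all arrays. PLPP5 had levels of 8.48, 7.96, 8.75 and 8.55 in A549 in DMSO, 7.99 and 8.52 in discodermolide, 7.99, 8.51 and 7.91 in AD32, and 7.81 on the AD32 4E-BP1 array. That array was the lowest of all, and its difference of -0.62 from A549 in DMSO was the lowest among the neighbours there (SE 0.34, not called).

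Of the ADAM family and protease genes, ADAM32 was high in treated A549 and low elsewhere, AD32 in the drug included. Its level was 5.12, 4.79, 4.90 and 4.87 in A549 in DMSO, 5.93 and 6.04 in discodermolide, 4.85, 5.19 and 4.87 in AD32, and 4.32 on the AD32 4E-BP1 array. Both treated A549 arrays were above every other array. It rose by 1.06 in discodermolide (SE 0.16, adjusted p = 0.0296), the 1 neighbour of 34 called in a comparison where 0.372% of all genes were called (0.35% higher, 0.0219% lower), and was lower in AD32 than in treated A549 (difference -1.02, SE 0.16, adjusted p = 0.0113). The rise was not called without A549 DMSO replicate 2, 3 or 4 (adjusted p = 0.0928, 0.113 and 0.123) or without discodermolide replicate 1 or 2 (0.203 and 0.333), and the comparison with AD32 was not called without discodermolide replicate 1 or 2 (0.0897 and 0.127). In A549 in DMSO and in AD32 it lay near the lower quartile of the arrays. ADAM9, an abundant metalloprotease gene (11.74 to 12.99), was at -0.33 in AD32 against A549 in DMSO (SE 0.19) and -0.70 against treated A549 (SE 0.23, adjusted p = 0.149). PLAT, which encodes tissue plasminogen activator, was at -0.48 (SE 0.21) and -1.03 (SE 0.25, adjusted p = 0.0588), and HTRA4, a serine protease gene, lay at 4.90 to 5.46 throughout.

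Among the 9 trafficking and other genes, PLEKHA2 and ANK1 were called and 6 had a negative difference. RAB11FIP1, an effector of the recycling GTPase Rab11, had levels of 8.55, 8.22, 7.81 and 7.83 in A549 in DMSO, 8.08 and 7.80 in discodermolide, 7.56, 7.53 and 7.15 in AD32, and 7.74 on the AD32 4E-BP1 array. AD32 was below every other array, and A549 DMSO replicates 1 and 2 were highest. The difference of -0.69 (SE 0.21, adjusted p = 0.0981) was not called. AP3M2, a subunit of the AP-3 adaptor, was at -0.89 (SE 0.26, adjusted p = 0.0869), with AD32 arrays at 8.44, 7.58 and 7.88. TM2D2 was at -0.48 (SE 0.24), while GOLGA7, a partner of a protein palmitoyltransferase, was at -0.11 (SE 0.22), PLPBP, a pyridoxal phosphate-binding protein gene, at 0.09 (SE 0.23), and TACC1, a centrosomal coiled-coil gene, at 0.25 (SE 0.17). LSM1, a factor of mRNA decapping, was at -0.29 (SE 0.25) and LETM2, a relative of the mitochondrial carrier LETM1, at 0.14 (SE 0.22). Without A549 DMSO replicate 1, TM2D2 (-0.73, adjusted p = 0.00639) and AP3M2 (-1.09, adjusted p = 0.016) were called, and LSM1 was at -0.50 (adjusted p = 0.104). In the RefSeq gene table the spans of ADGRA2 and BRF2, DDHD2 and PLPP5, and TM2D2 and ADAM9 overlap, and whether their probe sets share signal was not tested.

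For 3 neighbours the arrays with high and low G2/M markers did not overlap. GINS4, a subunit of the helicase complex that opens DNA for replication, had levels of 5.82, 9.06, 9.12 and 9.04 in A549 in DMSO, 6.20 and 6.46 in discodermolide, 4.41, 4.91 and 7.85 in AD32, and 8.85 on the AD32 4E-BP1 array. It was 7.85 to 9.12 on the 5 arrays with a G2/M mean of 10.04 or more and 4.41 to 6.46 on the 5 arrays with a mean of 7.20 or less. DDHD2 (9.01 to 9.56 against 8.44 to 9.01) and SLC20A2, a phosphate transporter gene (8.08 to 8.51 against 7.01 to 7.83), were the others. The same held for 13.5% of all genes. The GINS4 difference in AD32 was -2.54 with an SE of 0.98 (adjusted p = 0.191), and it was called without A549 DMSO replicate 1 (-3.35, adjusted p = 0.0246). Without that array POLB, the base excision repair polymerase, was at -0.82 (adjusted p = 0.0438), SLC20A2 at -0.92 (0.0351) and VDAC3, the mitochondrial outer membrane channel, at -1.19 (0.00936). With all arrays none of these passed (-0.65, -0.56 and -0.76, adjusted p = 0.185, 0.487 and 0.386).

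**Figure D3:**
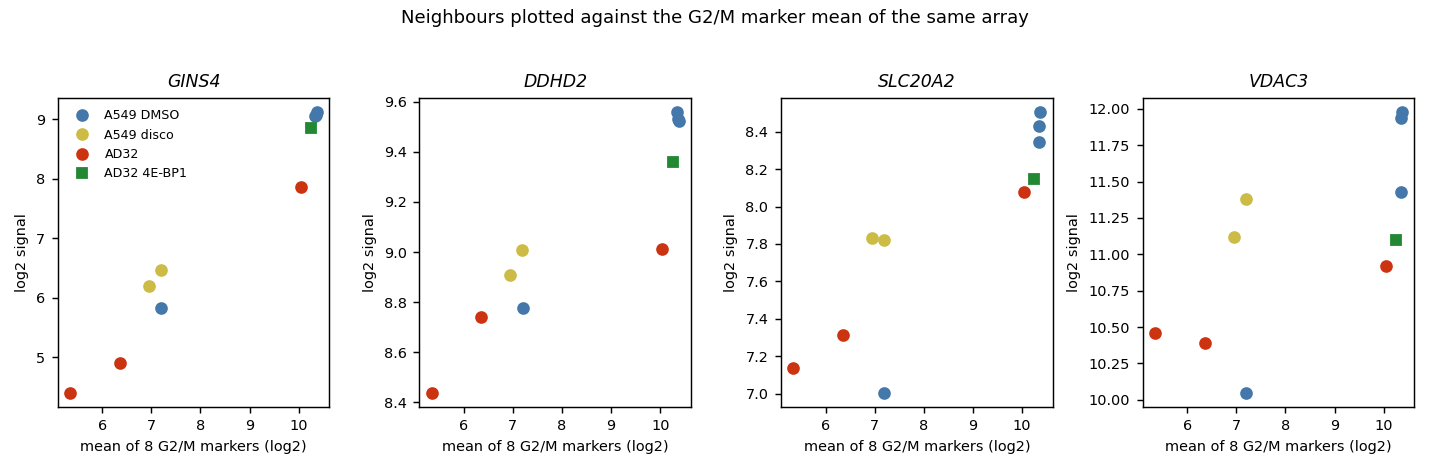
Log2 signal of GINS4, DDHD2, SLC20A2 and VDAC3 (vertical axes) against the mean log2 signal of 8 G2/M markers on the same array (horizontal axes), 10 arrays coloured by group. A549 DMSO replicate 1, at a G2/M mean of 7.20, lies away from the other A549 DMSO arrays, and AD32 replicate 3, at 10.04, away from the other AD32 arrays.

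With the G2/M marker mean as a covariate, an alternative chosen after seeing the data, UNC5D (-2.07), ANK1 (2.38), PLEKHA2 (-0.96, adjusted p = 0.0166) and RAB11FIP1 (-0.99, adjusted p = 0.0112) were called between AD32 and A549 in DMSO and ASH2L was not (-0.48, adjusted p = 0.0701). In that setting 6.84% of all genes were called, 2.57% of all genes being called lower. GINS4 was then at -0.55, VDAC3 at -0.11 and SLC20A2 at 0.12, none of them called.

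On the AD32 4E-BP1 array, where EIF4EBP1 was 1.93 above A549 in DMSO, its nearest listed neighbours were GOT1L1 at -0.25 (SE 0.26) and ASH2L at -0.37 (SE 0.20). The differences of the 34 neighbours ran from -0.62 (PLPP5) to 0.59 (GINS4), with a median of -0.13 and 22 of 34 below 0, against 50.8% of all genes. The median was -0.21 without A549 DMSO replicate 1 and -0.054 without replicate 2. By limma 0 of 34 were called, as was 0% of all genes. At an unadjusted p under 0.05, 1 neighbour (ADAM32) and 208 genes (1.14%) passed, and with array weights 3 genes but no neighbour were called. The array lay within the range of the A549 DMSO arrays for 27 neighbours, below it for 7 (UNC5D, BRF2, RAB11FIP1, ASH2L, PLPP5, ADAM9 and ADAM32) and above it for 0. Over all genes 15.9% lay below and 15.1% above. It was within the range of the AD32 arrays for 11 neighbours. For 23 of 34 it was nearer the A549 DMSO mean than the AD32 mean, as for 65.2% of all genes. Against the AD32 arrays it was lower in mean for 10 neighbours (53.8% of all genes), above all of them for 18 (23.9%) and below all of them for 5 (27.7%). The comparisons of AD32 and of AD32 4E-BP1 with A549 in DMSO share their control arrays.

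In the same concentration of drug, 29 of 34 neighbours had a lower mean in AD32 than in A549 (49.3% of all genes), with a median of -0.38 against 0.01 over all genes. UNC5D, PLEKHA2, ADAM32 and IKBKB were called lower and ANK1 higher, 5 of 34, where 3.74% of all genes were called (2.46% lower, 1.28% higher). Without discodermolide replicate 1 or 2, UNC5D and ANK1 were the 2 called, and the calls over all 18279 genes fell from 683 to 186 and 132. The AD32 arrays were all below both treated A549 arrays for 14 neighbours, with 18% of all genes, and all above for ANK1 and TACC1, with 14.4%. Within A549, discodermolide left the neighbours' median at 0.015 with 17 of 34 below 0 (46% of all genes). Both treated arrays were above all A549 DMSO arrays for PLEKHA2, ADAM32, GOLGA7, PLAT and IKBKB (5 of 34, with 15.2% of all genes) and below them for UNC5D (7.71%).

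**Figure D4:**
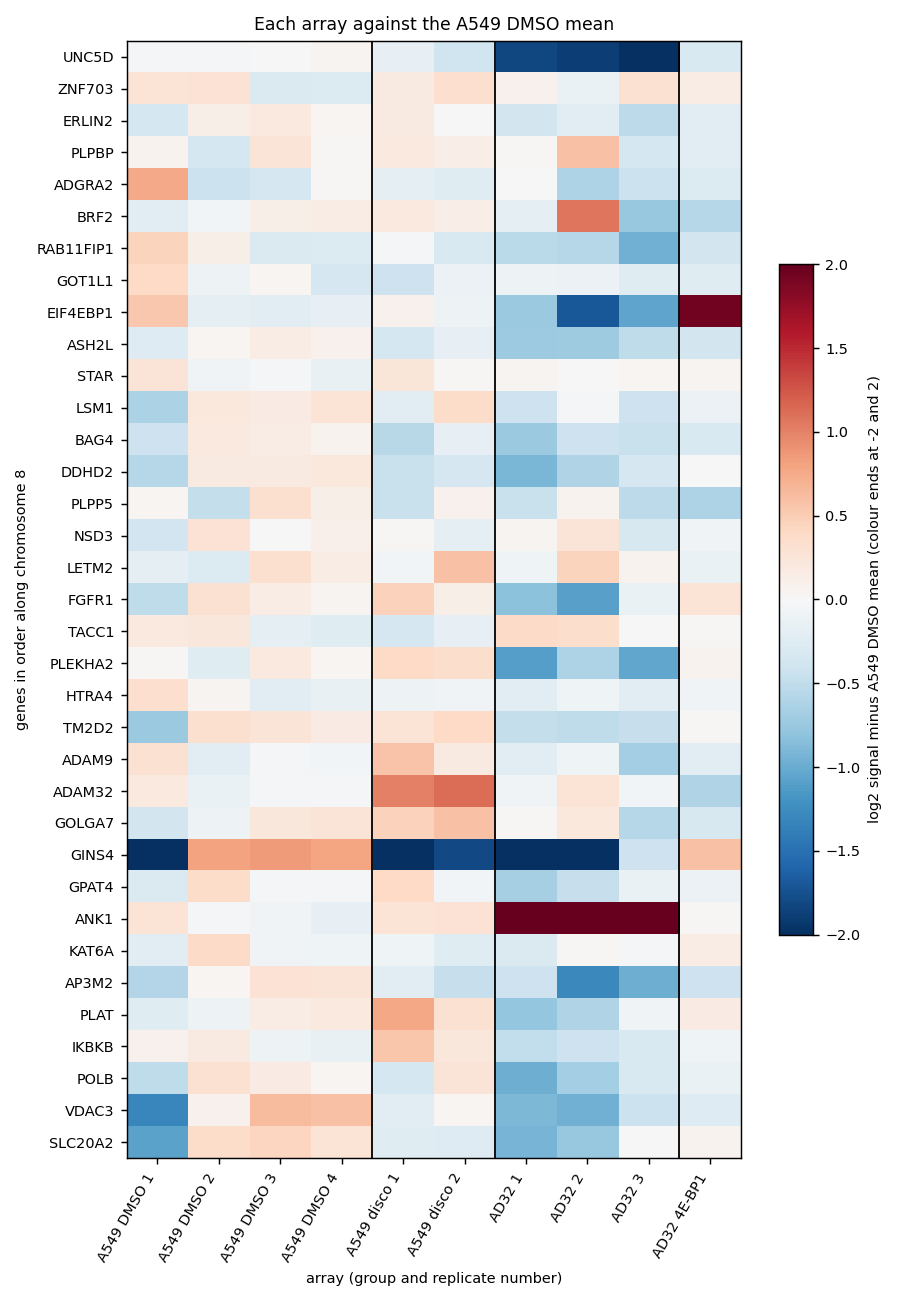
Log2 signal minus the A549 DMSO mean for 34 neighbours and EIF4EBP1 (rows, in gene order) on each of 10 arrays (columns, grouped by lines), blue for lower and red for higher, with colours ending at -2 and 2. UNC5D is blue and ANK1 red on the 3 AD32 arrays, EIF4EBP1 is red on AD32 4E-BP1, and GINS4, VDAC3 and SLC20A2 are blue on A549 DMSO replicate 1.

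The lower signal in AD32 was not limited to the genes around EIF4EBP1. For this comparison genes with a mean above 6.87, the median of all values, were used. This left 28 of the 34 neighbours, dropping ADGRA2, GOT1L1, STAR, HTRA4, ADAM32 and ANK1. Their median AD32 difference from A549 in DMSO was -0.45. It was -0.43 for 25 of the next 35 measured genes on the telomere side, -0.44 for 20 of the next 35 toward 8q, -0.45 for 66 other genes of 8p and -0.45 for 197 other genes of 8q. The median over all 9238 such genes was -0.01. Called genes made up 11.8% of the 34 neighbours and 11.2% of all 634 genes of chromosome 8, where 62 were lower and 9 higher. Between UNC5D and SLC20A2, 16 further measured genes outside the list had a median of 0.02 without the level limit, and 0 were called. The 3 of them above that level had a median of 0.17. By limma, 1 of these 16 had an unadjusted p under 0.05. Without the limit, medians were -0.36 for the 34 neighbours and -0.40 and -0.18 for the next 35 genes on the telomere side and toward 8q. They were -0.13 for the other genes of 8p and -0.11 for those of 8q.

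Over chromosome 8 as a whole, 340 genes above that level had a median AD32 difference of -0.44, the lowest of chromosomes 1 to 22 in this comparison, next to -0.42 on chromosome 10. Against A549 in discodermolide chromosome 10 was lowest (-0.47) and chromosome 8 next (-0.45), and the 2 changed places without discodermolide replicate 2. Chromosome 10 was also the lower of them on AD32 replicate 3 (-0.394 against -0.387) and, against A549 in DMSO, with the G2/M covariate (-0.30 against -0.29). Array by array, chromosome 8 without the neighbours and EIF4EBP1 lay at -0.52, -0.42 and -0.38 on AD32 replicates 1 to 3, and the 28 neighbours at -0.48, -0.44 and -0.41. On A549 DMSO replicates 1 to 4 the chromosome lay at -0.17, 0.03, 0.10 and 0.08, and on the treated A549 arrays at 0.04 and 0.03. The AD32 arrays did not overlap with the A549 arrays, and AD32 replicate 3, with its high G2/M markers, resembled the other AD32 arrays here. Without A549 DMSO replicate 1 the neighbours' median was -0.53, and with the G2/M covariate it was -0.22.

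The AD32 4E-BP1 array also had its lowest median on chromosome 8. The median difference from A549 in DMSO was -0.14 on chromosome 8, and on each of the other 21 numbered chromosomes it was above 0, from 0.02 on chromosome 3 to 0.10 on chromosome 17. This sign rested on A549 DMSO replicate 1: without it 14 of those 21 were below 0, from -0.086 to 0.088, while chromosome 8 was at -0.24. Chromosome 8 had the lowest median under all 18 alternatives, and other chromosomes lay below 0 with array weights (12), quantile normalization (8), median centring (4) and the G2/M covariate (3) as well. Chromosome 10, at -0.42 in AD32, was at 0.04 on this array. Outside the neighbours and EIF4EBP1 the chromosome 8 median was -0.15, from -0.24 without A549 DMSO replicate 1 to -0.11 without replicate 3. The group is 1 array, so these values have no replicate check.

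**Figure D5:**
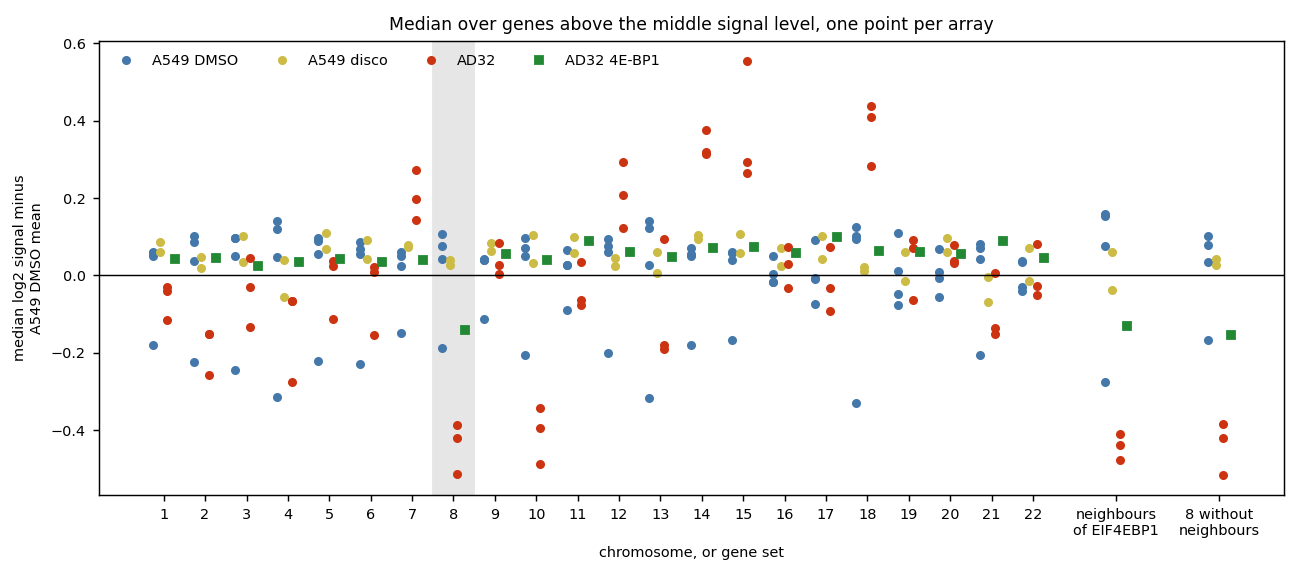
Median log2 signal minus the A549 DMSO mean, over genes with a mean above 6.87, for chromosomes 1 to 22 (8 shaded), the 28 neighbours of EIF4EBP1 above that level and chromosome 8 without them, 1 point per array (circles; square for AD32 4E-BP1). Chromosome 8 is low on the 3 AD32 arrays and is the one chromosome below 0 on the AD32 4E-BP1 array. With A549 DMSO replicate 1 left out of the mean, chromosome 8 remains lowest on that array (-0.24), and 14 other chromosomes are also below 0.

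By Pearson correlation over the 10 arrays, the neighbours most like EIF4EBP1 were UNC5D (Pearson r = 0.66), PLEKHA2 (0.59) and FGFR1 (0.57). These points share the group differences already given, with a lower mean in AD32 than in A549 for all 4 genes. For FGFR1, however, AD32 replicate 3 lay within the A549 DMSO arrays. With the G2/M marker mean, r was 0.63 for FGFR1, 0.39 for UNC5D and 0.20 for PLEKHA2. The order depended on the measure and on 1 array. By Spearman correlation the highest were IKBKB (0.71), PLEKHA2 (0.65) and RAB11FIP1 (0.61), with FGFR1 at 0.54 and UNC5D at 0.48. Without the AD32 4E-BP1 array the highest Pearson values were those of UNC5D (0.86), RAB11FIP1 (0.81) and PLEKHA2 (0.72), and FGFR1 was at 0.60.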

How the data were processed

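The 10 arrays were deposited as log2 signals per probe set. The submitters' processing notes name Affymetrix Expression Console as the tool the authors used; how it summarised and normalized the arrays, and the genome build, were not given in the sources used here, and the log2 scale was judged from the range of values. Array medians lay between 6.50 and 6.63. Of 24308 probe sets, the platform annotation gave 19262 a single gene, 1720 several and 3326 no name. Where a gene had several probe sets, the one with the highest mean was kept. Symbols and gene order came from the RefSeq gene table of assembly GRCh38.p14.

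Tests were made with limma 3.58.1 in R 4.3.3 (lmFit and eBayes, two-sided) over all 10 arrays in 4 groups, leaving 6 residual degrees of freedom. The number of arrays limits precision, most of all for the single AD32 4E-BP1 array. The scripts were checked on data with known answers, where the comparisons with that array recovered the smallest share of the changes.

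Values array by array are given for EIF4EBP1, for neighbours called in any of 5 comparisons, for those at least 1.5-fold from A549 in DMSO without overlap, and for FGFR1, NSD3, ASH2L, ZNF703 and IKBKB. GINS4 was added after its values were seen. The neighbours, marker lists, roles and rules were chosen with earlier results of these data known. Likeness to EIF4EBP1 was ranked by Pearson correlation. Figures were drawn with Python 3.11.15 and matplotlib 3.10.9.

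The other settings were quantile normalization on top of the deposited values, centring each array on its median, removal of the dimmest 33.3% of genes, array weights, a trended and robust prior, fitting without groups outside the comparison, averaging over probe sets, a block for the replicate number, averaging of A549 DMSO replicates 3 and 4, removal of each replicate in turn and, added after seeing the data, a G2/M covariate.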

Additional observations from a re-analysis of the deposited data

Results flagged for a closer look

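In A549 in DMSO, the group with 4 arrays, 7 of 35 genes (34 neighbours and EIF4EBP1) had an array far from the other 3; chance gives about 1 in 20. In 6 of the 7 it was replicate 1, whose G2/M marker mean was 7.20 against 10.34 to 10.37 on the others. EIF4EBP1 was high there, at 10.23 against 9.47 to 9.52. The other 5 were low. LSM1, an mRNA decapping factor gene, was at 8.01 against 8.82 to 8.92, and DDHD2 at 8.78 against 9.52 to 9.56. TM2D2 was at 7.74 against 8.65 to 8.80, GINS4 at 5.82 against 9.04 to 9.12, and SLC20A2 at 7.01 against 8.35 to 8.51. The remaining one was UNC5D on replicate 4, at 8.17 against 8.09 to 8.11, a small gap in a group with little spread.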

How the results depend on the processing

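No call of a neighbour changed sign. For AD32 against A549 in DMSO, 4 neighbours and 1045 genes were called, against 14 and 4215 with array weights, 650 genes with the replicate number as a block and 525 with A549 DMSO replicates 3 and 4 averaged; leaving out a replicate gave 2 to 13 neighbours and 512 to 2164 genes. For AD32 4E-BP1 against A549 in DMSO, array weights called 3 genes where 0 were called. For AD32 4E-BP1 against AD32 (2 neighbours, 168 genes, median 0.20), the counts were 107 genes without the dimmest genes, 6 and 1282 with array weights, 0 and 13 with only the compared groups, and 99 genes with the averaged replicates; leaving out a replicate gave 99 to 656 genes. The median was 0.26 without the dimmest genes, 0.065 with the G2/M covariate and 0.15 to 0.26 with a replicate left out. For discodermolide in A549 (1 neighbour, 68 genes), the counts were 0 and 36 without the dimmest genes, 11 and 4573 with array weights, 106 genes with only the compared groups, 0 and 4 with the block, 0 and 15 with the averaged replicates and 211 genes with the G2/M covariate; leaving out a replicate gave 0 to 1 and 8 to 643. For AD32 against A549 in discodermolide (5 and 683, median -0.38), they were 8 and 1869 with array weights, 3 and 353 with only the compared groups and 8 and 1823 with the G2/M covariate; leaving out a replicate gave 2 to 7 and 132 to 1215, with a median of -0.39 to -0.30, and the replicate block a median of -0.43. The causes were not tested.

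The labels do not say whether same-numbered samples were paired. Same-numbered arrays deviated together with correlations from -0.26 to 0.68, which does not settle it, and the main fit used no pairing. With the replicate block, RAB11FIP1 was called lower in AD32 than in A549 in DMSO (-0.78, adjusted p = 0.0412), and ASH2L and PLEKHA2 were not (0.0688 and 0.0657). No block could be fitted for the unnumbered AD32 4E-BP1 array. Averaging probe sets changed no neighbour's value, since each has 1.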
